A study of Mus musculus with 15 samples.

Results

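Sialyltransferases are Golgi enzymes that transfer sialic acid from a nucleotide sugar donor to the ends of the glycan chains on glycoproteins and glycolipids. The mRNA of 10 of them was followed through mouse thymocyte maturation: St3gal1, St3gal2, St3gal3, St3gal4, St3gal5, St3gal6, St6gal1, St8sia1, St8sia4 and St8sia6. They were taken by gene symbol from the array annotation, out of 18193 genes measured, and each was read from whichever of its probe sets was brightest on average across the 15 arrays. All 10 were among the 11871 genes tested, which lay above the array median in at least 3 arrays. Values are log2(signal + 16), so that a difference of 1 is about a 2-fold change for a bright gene and understates the change of a dim one.

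The study followed thymocytes that were being selected to become CD4 T cells, and its title names NF-κB and interferon signalling as its subject. Each of 5 groups held 3 samples of sorted cells from thymi of young adult C57BL/6 mice. PreDP cells were CD69-TCRβ- and PostDP cells CD69+TCRβ+ double-positive thymocytes, before and after selection, both from B2m-/- mice, in which selection on MHC class I does not take place. Tak1-deficient SM&M1 cells were Qa2-CD69+ CD4 single-positive thymocytes of Tak1f/f CD4Cre mice. In these mice the CD4 promoter drives Cre from the double-positive stage and removes the kinase Tak1 (gene Map3k7), which acts upstream of NF-κB. SM&M1 cells had the same Qa2-CD69+ phenotype, and M2 cells were the later Qa2+CD69- CD4 single-positive cells, both from Rag2-GFP BAC transgenic mice. In the Rag2-GFP mice the reporter and an exclusion stain (NK1.1, CD25 and GL3) kept NKT, regulatory and γδ T cells and recirculating T cells out of the sort. The labels name these gates for the Rag2-GFP mice only. Mouse line and stage, or mouse line and Tak1 loss, cannot be told apart in the comparisons that cross lines.

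Sialic acid linkages differ by enzyme family. ST3Gal enzymes add sialic acid in the α2,3 linkage to galactose, on O-glycans, N-glycans or glycolipids, and ST6Gal1 adds it in the α2,6 linkage to N-glycans. ST8Sia enzymes extend a chain that already ends in sialic acid. In the thymus, surface sialylation is known to change as thymocytes mature: immature cortical cells bind peanut lectin, which recognises the core 1 O-glycan without sialic acid, and mature medullary cells bind it poorly.

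The targeted gene and the stage markers were read before the members. Map3k7 averaged 5.39 ± 0.655 in Tak1-deficient SM&M1 cells and 10.42 ± 0.031 in SM&M1 cells (SD, n = 3 each). B2m read 9.55 to 10.17 in PreDP and PostDP arrays and 13.88 to 14.85 in the arrays of the other 3 groups. Cd69 averaged 9.10, 13.28, 12.50 and 11.54 in PreDP, PostDP, SM&M1 and M2 cells, and Cd8a 13.89, 12.74, 7.79 and 6.52. In Tak1-deficient SM&M1 cells Cd69 averaged 12.23 and Cd8a 9.63. One array differed from all others. Replicate 2 of the Tak1-deficient SM&M1 cells had a median signal of 167.81 against 80.52 to 121.46 on the other 14 arrays and an Actb 3' to 5' signal ratio of 1.62 against 1.02 to 1.18. The members' differences between Tak1-deficient and SM&M1 cells are given with and without it, as are the members' calls in other comparisons that its removal changed. Macrophage markers summed to 1930 and 1950 in replicate 1 of SM&M1 and M2 cells and to 3340 and 2400 in Tak1-deficient replicates 2 and 3, and to between 526 and 947 on the other 11 arrays. The dendritic, natural killer, B cell, double-positive, erythroid and thymic epithelial lists were also highest within SM&M1 and M2 cells on replicate 1. The CD4 single-positive, effector and regulatory lists were not highest on it in SM&M1 cells. Of the double-positive list, Rag1 read 10.55 on SM&M1 replicate 1, against 6.93 and 7.68 on replicates 2 and 3, while Cd4 read 12.02, against 12.14 and 12.50. The part of RNA from other cells in the members' values was not tested, and arrays were left out only singly.

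Promoter sequence is shown for St8sia6, the member with the widest range of group means, and for the 3 annotated starts of St6gal1, the ST6Gal member. RefSeq (GRCm38.p6) had a promoter, 250 bases before to 50 after a start, for 8 of the 10 members and 11 in all. Motifs searched on both strands were the GC box GGGCGG, the RUNX core TGTGGT, the EGR site GCGGGGGCG and the AP-1 site TGANTCA. So were the interferon-stimulated element core GAAANNGAA, the TATA box TATAAA, the E-box CANNTG and the NF-kB motif GGGRNNYYCC. In these, N is any base, R is A or G and Y is C or T. Capitals mark a match, other than the E-box.
St8sia6, chr2:13793471-13793770, minus strand: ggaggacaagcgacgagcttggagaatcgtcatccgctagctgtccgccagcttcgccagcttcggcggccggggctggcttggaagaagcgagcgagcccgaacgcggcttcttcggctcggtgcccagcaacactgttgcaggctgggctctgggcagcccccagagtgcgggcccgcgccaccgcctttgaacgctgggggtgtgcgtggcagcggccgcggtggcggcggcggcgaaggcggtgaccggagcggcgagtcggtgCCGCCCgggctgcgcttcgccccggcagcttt
St6gal1 start 1, chr16:23224490-23224789, plus strand: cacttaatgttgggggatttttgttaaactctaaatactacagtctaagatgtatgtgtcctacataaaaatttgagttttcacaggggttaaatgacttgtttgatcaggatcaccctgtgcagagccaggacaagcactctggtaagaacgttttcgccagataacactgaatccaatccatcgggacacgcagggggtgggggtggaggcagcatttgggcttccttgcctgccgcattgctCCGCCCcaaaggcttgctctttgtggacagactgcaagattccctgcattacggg
St6gal1 start 2, chr16:23225771-23226070, plus strand: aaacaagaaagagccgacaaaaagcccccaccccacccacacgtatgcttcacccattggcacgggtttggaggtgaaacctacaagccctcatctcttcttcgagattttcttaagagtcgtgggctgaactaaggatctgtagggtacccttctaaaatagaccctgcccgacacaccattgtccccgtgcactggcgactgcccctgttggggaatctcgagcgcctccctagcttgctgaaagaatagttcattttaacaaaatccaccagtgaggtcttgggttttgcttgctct
St6gal1 start 3, chr16:23290220-23290519, plus strand: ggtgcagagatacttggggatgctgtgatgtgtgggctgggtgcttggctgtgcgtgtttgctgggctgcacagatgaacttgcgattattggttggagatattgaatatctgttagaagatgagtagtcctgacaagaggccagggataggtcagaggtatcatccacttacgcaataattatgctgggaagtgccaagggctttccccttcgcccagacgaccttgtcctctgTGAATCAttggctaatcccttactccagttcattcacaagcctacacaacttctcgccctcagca
The St8sia6 promoter had 72.0% G and C and 39 CpG, against a median of 52.7% G and C over all 32851 promoters. Its only match was 1 GC box, in the transcribed part of the window, a motif found in 35.7% of all promoters. The NF-kB motif, present in 8.46% of all promoters, and the interferon-stimulated element core, present in 8.56%, had no match in the promoters shown. Among the members' promoters not shown, start 2 of St3gal6 had 1 NF-kB match and that of St3gal5 had 1 EGR match. St6gal1 start 1 held 1 GC box and start 3 held 1 AP-1 match, a motif of 7.81% of promoters. A match is a description of the letters and not a bound site.

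Of the 10 members, 8 had their lowest mean over the 4 stages in PreDP cells. The highest mean fell in PreDP for 1 member, in PostDP for 2, in SM&M1 for 5 and in M2 for 2. The same shares over all genes were not computed, so these counts describe the members only. A lower signal in a sorted population can reflect fewer cells that express a gene or less RNA per cell, and these arrays cannot tell which.

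**Figure D1:**
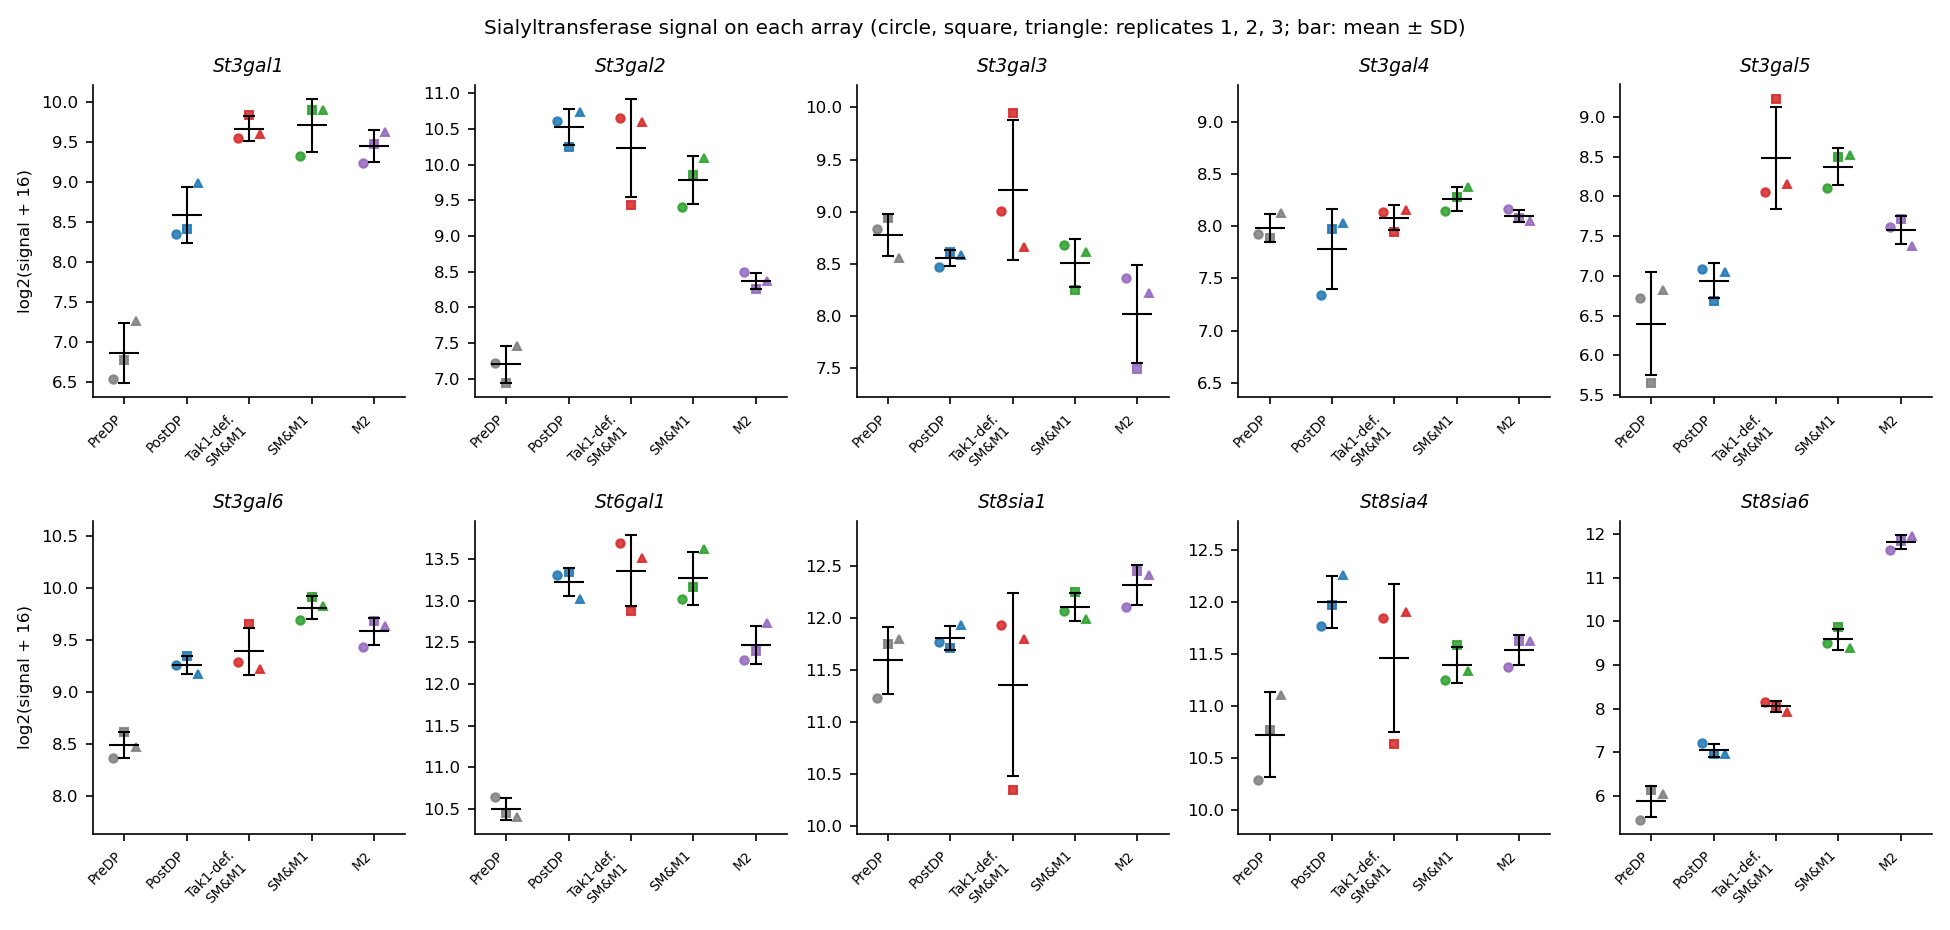
Signal of the 10 sialyltransferases as log2(signal + 16), with a separate vertical scale for each gene. Symbols are the 3 arrays of each group and bars give the mean and SD. St8sia6 steps up at each stage, with means of 5.87, 7.04, 9.59 and 11.81 in PreDP, PostDP, SM&M1 and M2 cells, while St3gal4 stays between group means of 7.78 and 8.27, and Tak1-deficient replicate 2 (red square) lies away from its group in St3gal2, St3gal3, St3gal5, St8sia1 and St8sia4.

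St3gal1 sialylates the galactose of core 1 O-glycans, as on CD43 and CD8, and in mice it is known as the enzyme whose loss leaves mature T cells with peanut lectin binding. It read 6.54, 6.78 and 7.27 in PreDP, 8.36, 8.42 and 8.99 in PostDP, 9.33, 9.91 and 9.90 in SM&M1 and 9.24, 9.48 and 9.63 in M2 cells. No PostDP array overlapped PreDP and no SM&M1 array overlapped PostDP, while M2 arrays lay within the SM&M1 range or just under it. In PreDP it was dim, above the array median on 1 of 3 arrays. St3gal1 rose in PostDP against PreDP by 1.72 ± 0.237 (log2 difference ± SE, limma adjusted p = 0.000247) and in SM&M1 against PostDP by 1.125 ± 0.237 (adjusted p = 0.00733). M2 against SM&M1 gave -0.26 ± 0.237 (adjusted p = 0.918). Its dimmer probe set 1441216_at also rose in PostDP against PreDP, by 2.002, but did not differ between SM&M1 and PostDP (-0.007, adjusted p = 0.996). The mean of both probe sets lost the second rise (0.56, adjusted p = 0.206).

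St3gal2 acts on core 1 O-glycans and on gangliosides. It read 7.22, 6.94 and 7.46 in PreDP, 10.61, 10.25 and 10.74 in PostDP, 9.41, 9.86 and 10.09 in SM&M1 and 8.49, 8.26 and 8.37 in M2 cells. All 4 stages were separate from each other: PostDP was highest, SM&M1 and M2 followed, and PreDP was lowest. In PostDP against PreDP it rose by 3.33 ± 0.296 (limma adjusted p = 5.78e-06), the largest difference of any member in that comparison. It fell in M2 against SM&M1, by -1.41 ± 0.296 (adjusted p = 0.0231). That fall lost its call with each array centred on its median (adjusted p = 0.142) and without SM&M1 replicates 2 or 3 or any one M2 replicate (adjusted p from 0.0555 to 0.123). Probe set 1421891_at gave the same directions, 2.76 in PostDP against PreDP and -1.23 in M2 against SM&M1 (adjusted p = 0.0117). That probe set was also lower in SM&M1 against PostDP (-0.79, adjusted p = 0.0374), where the brighter one gave -0.75 (adjusted p = 0.131). The dimmest, 1421890_at, gave 1.49 (adjusted p = 0.00462) and -1.10 (adjusted p = 0.113).

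St3gal6 and St3gal4 sialylate the N-acetyllactosamine ends from which selectin ligands are built. St3gal6 read 8.37, 8.62 and 8.47 in PreDP, 9.26, 9.34 and 9.17 in PostDP, 9.69, 9.91 and 9.82 in SM&M1 and 9.43, 9.68 and 9.63 in M2 cells. The changes were small beside those of St3gal1 and St3gal2, though the first 3 stages did not overlap. It rose in PostDP against PreDP by 0.77 ± 0.151 (limma adjusted p = 0.00331) and in SM&M1 against PostDP by 0.55 ± 0.151 (adjusted p = 0.0316). The first rise lost its call with arrays centred (adjusted p = 0.0721) and the second with arrays centred (0.117 as adjusted p) or without any one of the 6 arrays compared (0.0506 to 0.116 as adjusted p). St3gal6 had 5 probe sets, and the mean of all lost both calls (0.25, adjusted p = 0.466, and 0.21, adjusted p = 0.551), as it did that in M2 against PreDP (0.33, adjusted p = 0.245). Probe set 1454246_at had the opposite sign in PostDP against PreDP (-0.168, adjusted p = 0.82) and M2 against PreDP (-0.253, adjusted p = 0.6), while 1447841_x_at and 1449079_s_at kept the sign. St3gal4, on 1 probe set, had group means between 7.78 and 8.27 and passed in none of the 5 comparisons.

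St3gal3 also works on N-acetyllactosamine. It had group means of 8.78, 8.56, 8.51 and 8.02 in PreDP, PostDP, SM&M1 and M2 cells and passed in no comparison. M2 arrays read 8.36, 7.49 and 8.22 against 8.83, 8.94 and 8.56 in PreDP, so that the groups did not overlap. The difference of -0.76 ± 0.30 had an adjusted p of 0.0816 in limma, and of 0.0134 without Tak1-deficient replicate 2.

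St3gal5 is GM3 synthase, which puts the first sialic acid on lactosylceramide and so opens ganglioside synthesis. It read 6.72, 5.65 and 6.82 in PreDP, 7.08, 6.68 and 7.05 in PostDP, 8.10, 8.50 and 8.52 in SM&M1 and 7.62, 7.72 and 7.38 in M2 cells. PreDP and PostDP overlapped, SM&M1 was highest, and M2 lay between PostDP and SM&M1 with no overlap. The gene was dim in the first 2 stages, above the array median on 1 of 3 PreDP and 2 of 3 PostDP arrays. St3gal5 rose in SM&M1 against PostDP by 1.43 ± 0.333 (limma adjusted p = 0.0127). This call was lost without PostDP replicate 2 (adjusted p = 0.058) or SM&M1 replicate 3 (adjusted p = 0.0539). M2 against SM&M1 gave -0.80 ± 0.333 (adjusted p = 0.385). Its second probe set was too dim to test.

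St6gal1 makes the α2,6-sialylated N-glycans that CD22 on B cells binds. It read 10.65, 10.45 and 10.41 in PreDP, 13.30, 13.34 and 13.02 in PostDP, 13.02, 13.16 and 13.62 in SM&M1 and 12.29, 12.39 and 12.73 in M2 cells. PreDP stood below every other array, PostDP and SM&M1 overlapped, and M2 lay below both. St6gal1 rose in PostDP against PreDP by 2.72 ± 0.225 (6.58-fold, limma adjusted p = 3.03e-06). SM&M1 against PostDP gave 0.05 ± 0.225 (adjusted p = 0.944). M2 against SM&M1 gave -0.80 ± 0.225 (adjusted p = 0.102). Same-numbered M2 and SM&M1 samples deviated together, and their pairing was inferred from that alone, not from the labels. With replicate as a block the M2 against SM&M1 difference passed (limma adjusted p = 0.0287). It also passed without Tak1-deficient replicate 2 (adjusted p = 0.0174). The dim probe set 1420927_at gave 0.61 in PostDP against PreDP (adjusted p = 0.384), and the mean of both probe sets rose by 1.665. Summed B cell markers ran from 5580 to 5890 in PostDP and from 12000 to 13600 in PreDP cells. Of its 7 tested genes limma called 0 higher and 2 lower, Ighm and Cd79b, and 5 did not pass, with a median of 0.197. Cd79a, Ms4a1 and Blk were 0.29 to 0.51 higher in PostDP than in PreDP cells without passing. The brightest gene, Ighm, read 12.14 to 12.21 in PostDP and 13.30 to 13.47 in PreDP cells. The part of B cell RNA in the St6gal1 values was not tested.

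St8sia1 is GD3 synthase, which adds the second sialic acid to GM3. It read 11.23, 11.75 and 11.80 in PreDP, 11.77, 11.71 and 11.93 in PostDP, 12.07, 12.25 and 11.99 in SM&M1 and 12.10, 12.45 and 12.41 in M2 cells. The stages lay close together and it passed in no comparison. Its M2 against PreDP difference was 0.725 ± 0.328 (limma adjusted p = 0.127) and passed in 4 of 24 alternatives, among them the fit without Tak1-deficient replicate 2 (adjusted p = 0.00323). The dimmer probe set 1419695_at did pass, at 1.14 in PostDP against PreDP (adjusted p = 0.0079) and 1.56 in M2 against PreDP (adjusted p = 0.000395).

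St8sia4 is a polysialyltransferase, which builds long chains of α2,8-linked sialic acid on carriers such as NCAM and neuropilin-2. It read 10.29, 10.77 and 11.11 in PreDP, 11.77, 11.97 and 12.26 in PostDP, 11.25, 11.59 and 11.34 in SM&M1 and 11.37, 11.62 and 11.62 in M2 cells. PostDP was above every array of the other 3 stages. It rose in PostDP against PreDP by 1.27 ± 0.304 (limma adjusted p = 0.0115). The call was lost with arrays centred (adjusted p = 0.0944), without PreDP replicate 1 (adjusted p = 0.0561) and without PostDP replicate 3 (adjusted p = 0.0576). Probe set 1430391_at rose by 1.40 (adjusted p = 0.000194).

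St8sia6 adds α2,8-linked sialic acid to chains on glycoproteins, mainly O-glycans, and makes disialylated ligands that mouse Siglec-E can bind. It read 5.46, 6.13 and 6.04 in PreDP, 7.22, 6.95 and 6.95 in PostDP, 9.51, 9.86 and 9.39 in SM&M1 and 11.63, 11.84 and 11.95 in M2 cells. Every stage lay above the one before it with no overlap, and on the linear scale the signal was 27.9 to 53.8 in PreDP and 3163 to 3939 in M2 cells. In PreDP all 3 arrays were below their array's median, and in PostDP 1 of 3 was above it, so a fold against either stage depends on the pseudocount. St8sia6 rose in PostDP against PreDP by 1.17 ± 0.195 (limma adjusted p = 0.00111), in SM&M1 against PostDP by 2.54 ± 0.195 (5.83-fold, adjusted p = 3.82e-06) and in M2 against SM&M1 by 2.22 ± 0.195 (4.67-fold, adjusted p = 8.83e-05). It was the only member that passed in all 5 comparisons, and its 3 stage steps passed in all 24 alternatives each. The M2 against SM&M1 difference stayed between 2.12 and 2.36 in them. Arrays were left out singly, so no alternative removed replicate 1 of both SM&M1 and M2 cells, where macrophage and several other marker lists were high. The part of RNA from other cells in this difference was not tested.

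**Figure D2:**
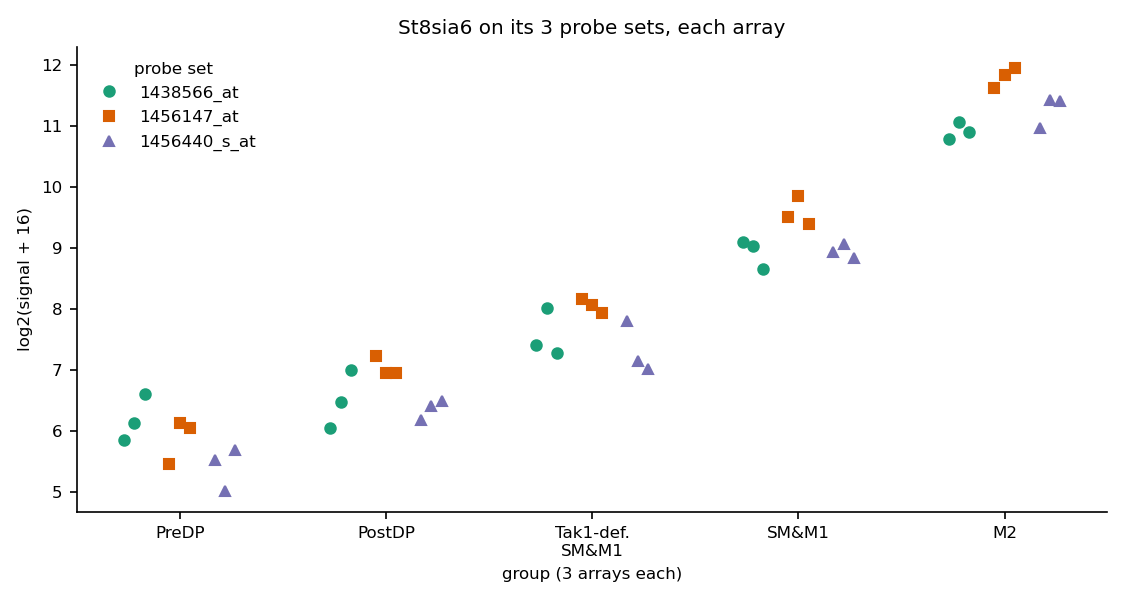
St8sia6 on its 3 probe sets, 1 point per array, as log2(signal + 16). All 3 rise over the later stages and lie lower in Tak1-deficient SM&M1 than in SM&M1 cells. Between PostDP and PreDP, probe set 1438566_at differs by 0.31 only.

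The other probe sets of St8sia6 gave the same order. In M2 against SM&M1, 1438566_at rose by 1.99 and 1456440_s_at by 2.32 (limma adjusted p = 0.00214 and 0.000265). In SM&M1 against PostDP they rose by 2.42 and 2.59. In PostDP against PreDP, 1456440_s_at rose by 0.95 (adjusted p = 0.016) and 1438566_at gave 0.31 (adjusted p = 0.585).

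The members were then set against all genes in each comparison. In PostDP against PreDP, 6 of 10 members rose and 0 fell, where 14.9% of all genes tested were called in either direction. The median of the 10 was 0.97, against 0.015 over all genes. Replicate numbers were taken to pair these samples, and with the block 2703 genes (22.8%) were called in place of 1772. In SM&M1 against PostDP, 4 members rose and 0 fell, with 12.0% of genes called, and the medians were 0.39 and 0.026. The 4 were St3gal1, St3gal5, St3gal6 and St8sia6, and leaving out single arrays gave counts of 2 to 6 members. The lowest count came without PostDP replicate 2 or SM&M1 replicate 3. The highest came without Tak1-deficient replicate 2, where 4 rose and 2 fell, and 2737 of the 11735 genes tested were called. The 2 that fell were St3gal2, by -0.746 (limma adjusted p = 0.0141), and St8sia4, by -0.602 (adjusted p = 0.0427). The fit of only these groups also called both lower (adjusted p = 0.0477 and 0.0448). So did the mean of all probe sets, by -0.645 and -0.551 (limma adjusted p = 0.0145 and 0.017). In that same fit St3gal1 and St3gal6 lost their rises (adjusted p = 0.206 and 0.551), so the count of 4 rises and 0 falls depends on the probe sets used.

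In M2 against SM&M1, St8sia6 rose and St3gal2 fell, where 2.33% of genes were called. The member median was -0.24, against -0.005 over all genes, and 8 of 10 members did not pass. With the replicate block 594 genes were called in place of 277. In M2 against PreDP, which spans the 3 steps and shares its samples with them, 6 members rose and 0 fell, with 27.1% of genes called. St8sia6 gave 5.94 ± 0.195, St3gal1 2.59 ± 0.237, St6gal1 1.97 ± 0.225, St3gal5 1.18 ± 0.333, St3gal2 1.17 ± 0.296 and St3gal6 1.10 ± 0.151. The member median was 1.13 and the median of all genes 0.049. With the mean of all probe sets the St6gal1 rise was 1.14 and that of St3gal2 0.63. The dimmest probe set of each did not pass: 1420927_at of St6gal1 gave 0.307 and 1421890_at of St3gal2 -0.004 (limma adjusted p = 0.634 and 0.994). St3gal2 lost its call with arrays centred (adjusted p = 0.0939), and St3gal5 without PreDP replicate 2 (adjusted p = 0.086) or M2 replicate 2 (adjusted p = 0.0597). Without Tak1-deficient replicate 2, limma called 9 members, and 4702 of the 11735 genes tested. St8sia1 and St8sia4 were then also higher, by 0.725 and 0.812 (limma adjusted p = 0.00323 and 0.00525), and St3gal3 lower, by -0.756 (adjusted p = 0.0134).

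**Figure D3:**
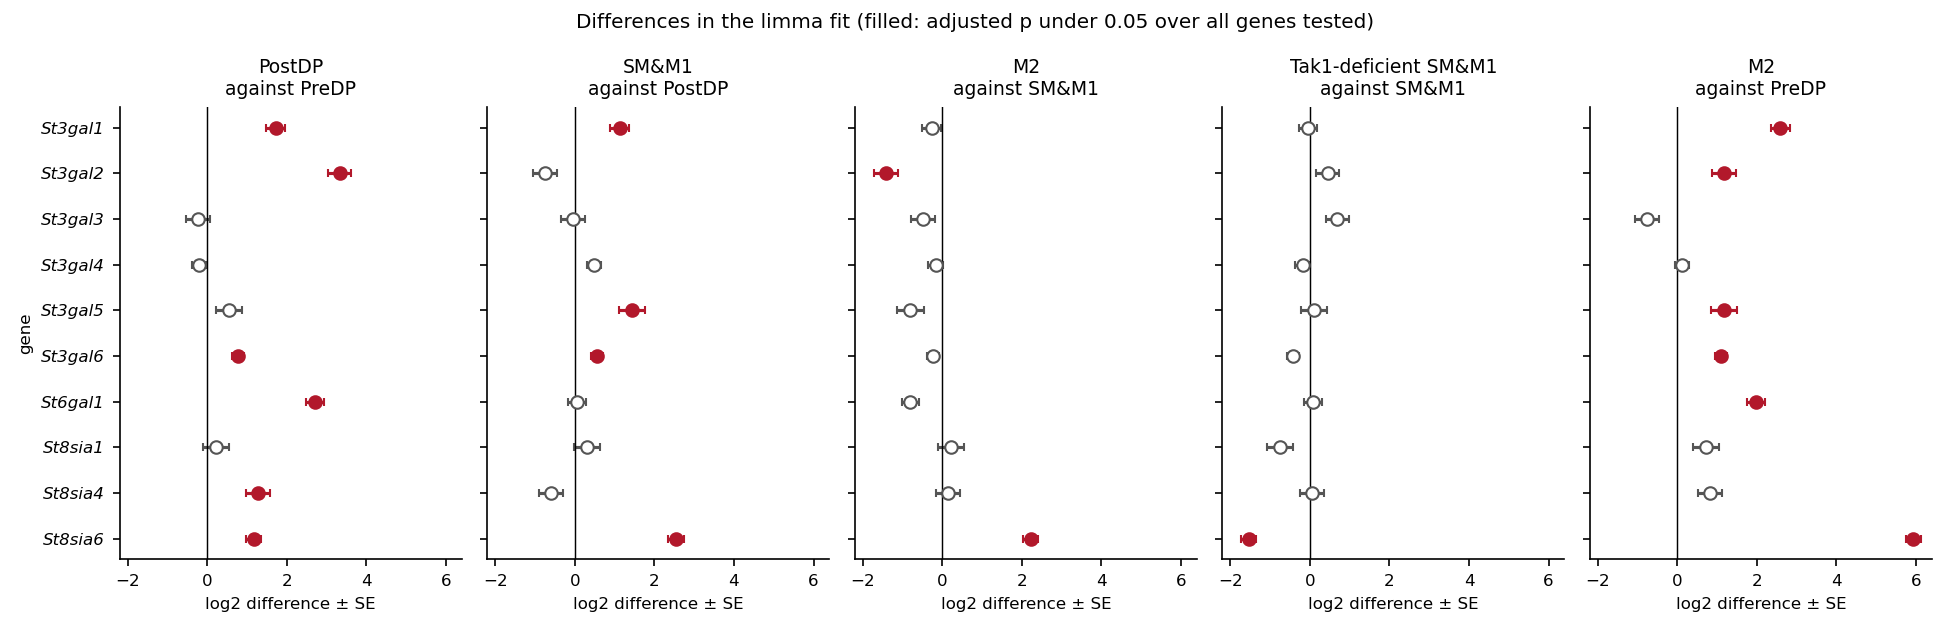
Log2 differences of the 10 members (points, with the limma SE as bars) in the 5 comparisons, filled where the adjusted p over all genes was under 0.05. Rises fill the PostDP against PreDP panel (6 of 10), and St8sia6 is the single filled point in the Tak1-deficient panel, at -1.54.

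Centring each array on its median moved the median of all genes by -0.145 in PostDP against PreDP, -0.147 in Tak1-deficient against SM&M1 cells and -0.151 in M2 against PreDP. It also moved the share of calls that were higher to 36.1%, from 49.3%, in the first of these and to 13.4%, from 25.4%, in the second. Under it St3gal6 and St8sia4 lost their calls in PostDP against PreDP, and St3gal6 in SM&M1 against PostDP. St3gal2 lost its calls in M2 against SM&M1 and in M2 against PreDP. St3gal3 was then called lower in M2 against PreDP (-0.908, limma adjusted p = 0.0148). No member that passed changed direction, and shifts of this size were too small to turn one.

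Loss of Tak1 was compared at the SM&M1 stage. St8sia6 read 8.16, 8.06 and 7.93 in Tak1-deficient SM&M1 cells, against 9.51, 9.86 and 9.39 in SM&M1 cells. It was lower on every Tak1-deficient array, and these arrays lay above all PostDP arrays (6.95 to 7.22). The difference was -1.54 ± 0.195 (0.344-fold, limma adjusted p = 0.00154), and it was the only one of the 10 members to pass, with 1.69% of all genes called. It was -1.542 without Tak1-deficient replicate 2 (adjusted p = 0.00248). The same difference did not pass when only these 2 groups were fitted (limma adjusted p = 0.127), a fit that called 5 genes in all. It did not pass with a replicate block either, where limma called 0 genes at an adjusted p and 658 at an unadjusted p under 0.05. The numbers were not taken to pair the samples in this comparison. Probe sets 1438566_at and 1456440_s_at gave -1.365 and -1.63 (adjusted p = 0.0274 and 0.00388).

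Stage markers also differed between these groups. Cd8a read 9.28, 10.22 and 9.38 in Tak1-deficient SM&M1 cells, against 8.03, 7.68 and 7.65 in SM&M1 cells, a difference of 1.84 ± 0.43 that did not pass (limma adjusted p = 0.051). The double-positive marker list summed to between 8320 and 10800 in Tak1-deficient cells and between 7880 and 9730 in SM&M1 cells. Of its 7 tested genes 0 were called higher and 1 lower, Cd4, with a median of 1.303 against 0.055 over all genes, and 6 of the 7 against 5 lay above the median of all 3 arrays of their group. The CD4 single-positive list summed to between 18900 and 23900 in Tak1-deficient cells and between 24000 and 30300 in SM&M1 cells. Of its 7 tested genes 0 were higher and 3 lower, with a median of -0.687: Klf2 fell by -0.97 ± 0.196, S1pr1 by -2.53 ± 0.469 and Cd4 by -0.92 ± 0.19 (limma adjusted p = 0.0261, 0.0182 and 0.0284). S1pr1, which thymocytes need to leave the thymus, read 7.97, 5.71 and 7.69 in Tak1-deficient cells, against 9.73, 9.81 and 9.41 in SM&M1 cells. The part of these markers' shift in the St8sia6 result was not tested.

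The other 9 members did not pass between Tak1-deficient SM&M1 and SM&M1 cells. St3gal6 read 9.29, 9.65 and 9.22 in Tak1-deficient cells, against 9.69, 9.91 and 9.82 in SM&M1 cells, a difference of -0.42 ± 0.151 (limma adjusted p = 0.185). Without Tak1-deficient replicate 2 it fell, by -0.55 (adjusted p = 0.0408). St8sia1 read 11.93, 10.35 and 11.80, against 12.07, 12.25 and 11.99, and its low value was on the array that stands apart. Its difference was -0.745 ± 0.328 (adjusted p = 0.262), or -0.24 without that array (adjusted p = 0.519). St3gal3 read 9.01, 9.95 and 8.66, against 8.68, 8.25 and 8.61, with the high value on that same array. The difference was 0.70 ± 0.3 (adjusted p = 0.253), or 0.325 without it (adjusted p = 0.507). St3gal2 read 10.66, 9.44 and 10.60, against 9.41, 9.86 and 10.09 (0.45 ± 0.296, adjusted p = 0.43), and without replicate 2 the difference was 0.847 (adjusted p = 0.0544). Its probe set 1421891_at was called higher, by 1.15 (adjusted p = 0.0227), so its probe sets disagreed. St3gal1, St3gal4, St3gal5, St6gal1 and St8sia4 differed by -0.046, -0.18, 0.11, 0.092 and 0.064, in that order. Without Tak1-deficient replicate 2 the same 5 gave -0.135, -0.115, -0.263, 0.331 and 0.474, and none passed (limma adjusted p from 0.272 to 0.829).

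Genes that supply the sialic acid donor and prepare its acceptors changed in part. Over all genes tested, the shares called were 14.9% in PostDP against PreDP, 12.0% in SM&M1 against PostDP and 2.33% in M2 against SM&M1. They were 1.69% in Tak1-deficient against SM&M1 cells and 27.1% in M2 against PreDP. Of 7 tested genes for making, activating and transporting sialic acid, 1 rose and 1 fell in PostDP against PreDP. Slc35a1, which carries CMP-sialic acid into the Golgi, rose by 0.69 ± 0.148 (limma adjusted p = 0.006), a call lost with arrays centred (adjusted p = 0.232). It fell in M2 against SM&M1 by -0.70 ± 0.148 (adjusted p = 0.0245), a call lost in 8 of 24 alternatives. Cmah, which converts the acetyl form of sialic acid to the glycolyl form, averaged 9.57 in PostDP and 10.69 in PreDP cells, and fell by -1.12 ± 0.27 (adjusted p = 0.0123). The Cmah call was lost without PreDP replicate 2 or 3 or PostDP replicate 3 (adjusted p from 0.0502 to 0.0559). Cmas, which activates sialic acid to CMP-sialic acid, fell in SM&M1 against PostDP by -0.51 ± 0.128 (adjusted p = 0.0203), lost in 6 alternatives. The plasma membrane sialidase Neu3 fell in PostDP against PreDP (-1.51 ± 0.447, adjusted p = 0.036, lost in 9 alternatives) and in M2 against PreDP (-2.13, adjusted p = 0.00269).

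Of the 8 other sialyltransferases tested, limma called 0 in each of the 3 stage steps and in the Tak1 comparison. At an unadjusted p under 0.05 the counts were 0, 1, 0 and 1. In M2 against PreDP, 1 rose, St6galnac4, by 0.79 ± 0.276 (adjusted p = 0.0488), a call lost in 15 of 24 alternatives.

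On the O-glycan side, 2 of 11 tested genes rose and 2 fell in PostDP against PreDP, and without PreDP replicate 3 the count of calls was 2 in place of 4. Galnt6, a transferase that starts O-glycans, averaged 11.66 in PostDP and 8.71 in PreDP cells, a rise of 2.94 ± 0.19 (limma adjusted p = 2.9e-07). Galnt4, of the same family, fell by -1.10 ± 0.216 (adjusted p = 0.00319), though not in the mean of its probe sets (adjusted p = 0.447). In M2 against PreDP, 3 rose and 2 fell. Galnt6 averaged 12.08 in M2 and 8.71 in PreDP cells, a rise of 3.37 ± 0.19 (adjusted p = 2.73e-08). C1galt1, which makes the core 1 that St3gal1 and St3gal2 sialylate, averaged 10.35 in M2 and 11.78 in PreDP cells and fell by -1.435 ± 0.242 (adjusted p = 0.000527). In SM&M1 against PostDP, Galnt11 and Galnt10 rose by 0.88 ± 0.193 and 0.78 ± 0.196 (adjusted p = 0.00885 and 0.0199) and 1 of the 11 fell. Both were lost in the mean of all probe sets (adjusted p = 0.0714 and 0.083), and with arrays centred 0 of the list were called. That count of 3 was 6 without Tak1-deficient replicate 2 and 1 with a replicate block. None (0 of 11) was called in M2 against SM&M1, and 0 had an unadjusted p under 0.05.

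On the N-glycan side, 1 of 14 tested genes rose and 3 fell in PostDP against PreDP, and 2 rose and 6 fell in M2 against PreDP. Without PreDP replicate 3 the last count was 5 in place of 8: Mgat4a and Man2a2 lost their calls, and B3gnt8 no longer met the filter on dim genes. B3gnt8, which extends lactosamine chains, averaged 5.87 in PostDP and 8.42 in PreDP cells, a fall of -2.55 ± 0.182 (limma adjusted p = 8.07e-07). With any 1 PreDP array left out it was not tested, since it lay above the array median in too few arrays. It fell further in SM&M1 against PostDP, by -1.12 ± 0.182 (adjusted p = 0.00143), with every array of both stages below its own median. With a pseudocount of 1 that fall was -1.86, and it lost its call with eBayes trend and robust (adjusted p = 0.0599). Mgat4a, a branching enzyme, fell in PostDP against PreDP by -1.81 ± 0.326 (adjusted p = 0.00189), or by -1.11 in the mean of its probe sets. Mgat5, another branching enzyme, fell in M2 against PreDP by -1.71 ± 0.316 (adjusted p = 0.00104). B3gnt5, which starts lactosamine chains on glycolipids, fell in SM&M1 against PostDP by -1.36 ± 0.217 (adjusted p = 0.00121). None (0 of 14) was called in M2 against SM&M1, and 1 had an unadjusted p under 0.05.

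Ganglioside genes, which make and break down the glycolipids on which St3gal5 and St8sia1 act, gave the largest share of calls among the enzyme lists in SM&M1 against PostDP. There 6 of 8 tested rose and 0 fell, where 12.0% of all genes tested were called. The median was 0.82 against 0.026 over all genes. Gm2a, the activator protein for GM2 breakdown, rose by 1.30 ± 0.221 (limma adjusted p = 0.00194) and B4galt5, a lactosylceramide synthase, by 1.10 ± 0.246 (adjusted p = 0.00999). In the mean of their probe sets both calls were lost (0.505, adjusted p = 0.12, and 0.805, adjusted p = 0.0591). The other 4, named after their values were seen, were Ugcg, B4galnt1, B3galt4 and Hexa, with rises of 0.67 to 0.99. Their calls were lost in 13, 12, 9 and 7 of 24 alternatives, in that order. The count of 6 for the list ran from 1 to 6 over the 24 alternatives and was 1 without SM&M1 replicate 2. In M2 against PreDP, 6 of 8 rose and 1 fell, where 27.1% of all genes tested were called. B4galnt1, the GM2 and GD2 synthase, averaged 12.155 in M2 and 9.63 in PreDP cells, a rise of 2.53 ± 0.238 (adjusted p = 3.25e-06), and B4galt5 rose by 2.31 ± 0.246 (adjusted p = 9.81e-06), or by 1.385 in the mean of its probe sets. B4galnt1 had also risen in PostDP against PreDP, by 1.37 ± 0.238 (adjusted p = 0.00146). Both in M2 against SM&M1 and in Tak1-deficient against SM&M1 cells, 0 of 8 were called and 2 in each had an unadjusted p under 0.05.

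**Figure D4:**
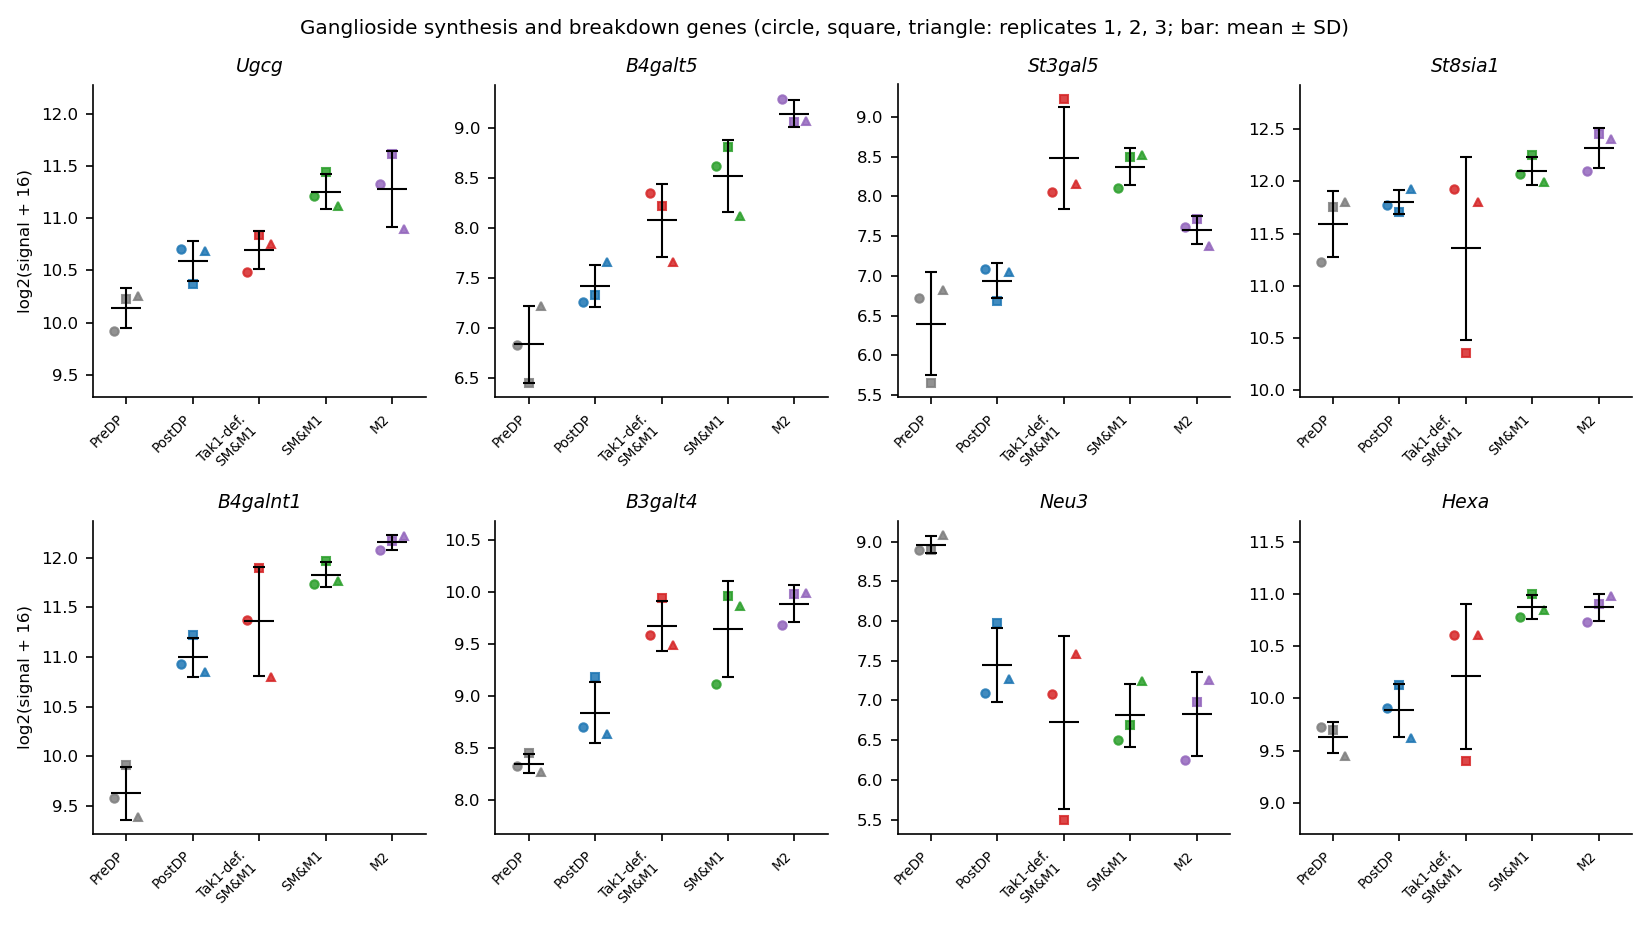
Genes of ganglioside synthesis and breakdown as log2(signal + 16), a separate vertical scale for each gene. Symbols are arrays, and bars give the mean and SD of 3. B4galnt1 and B4galt5 are highest in M2 cells, St3gal5 is highest in the 2 SM&M1 groups, St8sia1 moves little over the stages, and Neu3 is highest in PreDP.

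Selectin ligand genes were mostly too dim, with 3 of 10 tested. Chst2, a sulfotransferase, averaged 7.13 in PostDP and 4.62 in PreDP cells and rose by 2.51 ± 0.542 (limma adjusted p = 0.00609), or by 3.88 with a pseudocount of 1. In the other 4 comparisons 0 of the 3 were called, with 0, 1, 0 and 1 at an unadjusted p under 0.05 in SM&M1 against PostDP, M2 against SM&M1, Tak1-deficient against SM&M1 and M2 against PreDP.

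Genes most like a member were found by the correlation of log2 signal over the 15 arrays, as a description, since the points share 5 groups. For St8sia6 they were Atp1b3 (r = 0.987), Pced1b (0.9845) and Ms4a4c (0.9841). Without Tak1-deficient replicate 2 they were Ms4a4c (0.9897), L1cam (0.9895) and Atp1b3 (0.9873). For St3gal2 they were Abi2 (0.9797), Hivep3 (0.9661) and Tfrc (0.9658), and on 14 arrays Armcx2 (0.9799) took the place of Tfrc. For St6gal1 they were Hsd17b12 (0.9821), Itih5 (0.9817) and Mapk11 (0.9778), the same 3 on 14 arrays. Mean Ms4a4c was 6.35, 7.26, 9.54 and 11.12 in PreDP, PostDP, SM&M1 and M2 cells and 7.61 in Tak1-deficient SM&M1 cells. Mean Abi2 was 7.98, 10.91, 10.36 and 9.17 over the same 4 stages, so that it was highest in PostDP, as St3gal2 was.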

How the data were processed

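RNA of sorted thymocytes was hybridised to Affymetrix mouse arrays, 1 per sample. The authors deposited linear signal intensity for 45101 probe sets on 15 arrays. The algorithm behind these intensity values is not given in the sources used here, and detection calls were not used here. From the values, each array's mean after trimming 2% at each end is 500. Biological replicates, per the labels, are not said to be separate animals, so the p-values cover variation among these samples alone, part of which may be technical.

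Probe sets were named by the platform annotation: 34945 had 1 gene, 932 several, 9160 were unnamed here and 64 were controls. The 1-gene names were updated through RefSeq for 34741. Each gene was its probe set with the highest mean. Genes above the array median (percentile 50) in at least 3 arrays were tested with limma (3.58.1, R 4.3.3) on log2(intensity + 16), with 1 mean per group, all 15 arrays, 10 residual degrees of freedom, and Benjamini-Hochberg adjustment over 11871 genes. A call is an adjusted p under 0.05. "Rose" and "fell" are used of calls. Standard errors are those of the fit. Members and lists were chosen with earlier results of these data known. All members were described. From each pathway list, up to 2 called genes per comparison with the largest differences were named. The likeness rule took the 3 members with the widest range of group means and 3 genes each.

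Same-numbered samples deviated together in PostDP and PreDP (correlations 0.339, 0.275 and 0.411 for numbers 1, 2 and 3) and in M2 and SM&M1 (0.553, 0.436 and 0.326), where the numbers were taken to pair samples. They did not in SM&M1 and PostDP (-0.01, 0.124 and 0.026), Tak1-deficient and SM&M1 (-0.174, -0.192 and -0.244) or M2 and PreDP (0.035, 0.15 and 0.006). The alternatives were fitting the compared groups by themselves, the same with a replicate block, no filter, a filter at percentile 75, quantile normalization, arrays centred on their median, the mean of all probe sets, pseudocount 1, the trend and robust options of eBayes, and leaving out each array. The fit was tested on simulated data with independent noise on each array. That simulation held no replicate pairing and no array that stands apart, so it does not cover those features of these data. Promoters are from RefSeq (GRCm38.p6).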

Additional observations from a re-analysis of the deposited data

How the results depend on the processing

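Of 1185 values of members under alternatives, 1132 kept their side of the threshold, 30 lost a call and 23 gained one; a direction was read where either fit called the member, and 0 of these turned. While uncalled in both fits, 26 changed sign. The counts that moved by over 1.5 times were these. Fitting only the groups compared called 2467 genes in SM&M1 against PostDP, 428 in M2 against SM&M1, and 5 with 0 members in Tak1-deficient against SM&M1 (996 genes at an unadjusted p under 0.05). With the replicate block 2703 genes were called in PostDP against PreDP, 594 in M2 against SM&M1, and 0 with 0 members in Tak1-deficient against SM&M1 (658 unadjusted); beside these, the block gained St6gal1 in M2 against SM&M1 and lost St3gal6 in SM&M1 against PostDP (adjusted p = 0.0538), and in M2 against PreDP it gained St8sia1 (0.0211) and St8sia4 (0.023). With arrays centred 825 genes were called in SM&M1 against PostDP, 132 with 1 member in M2 against SM&M1 and 97 in Tak1-deficient against SM&M1, and with no filter 114 in the last. Leaving out single arrays gave 1170 to 3007 genes and 5 to 6 members in PostDP against PreDP, 873 to 2737 genes and 2 to 6 members in SM&M1 against PostDP, 86 to 678 genes and 1 to 3 members in M2 against SM&M1, 65 to 357 genes and 1 to 2 members in Tak1-deficient against SM&M1, and 2541 to 4702 genes and 5 to 9 members in M2 against PreDP. Every highest count of genes came without Tak1-deficient replicate 2. The cause of these shifts was not tested. Fits of fewer groups or arrays have fewer residual degrees of freedom, and some of them called more genes than the main fit and others fewer. The number of arrays, 3 a group, limits the precision.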

Other observations

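The surface proteins that carry sialic acid were a list not described above, and 14 of its genes were tested. Over all genes tested, 14.9% were called in PostDP against PreDP and 12.0% in SM&M1 against PostDP. The shares were 2.33% in M2 against SM&M1 and 1.69% in Tak1-deficient against SM&M1 cells. In PostDP against PreDP, 6 rose and 3 fell, led by Cd2, an adhesion receptor, at 3.11 ± 0.412, and Cd5, a regulator of T cell receptor signalling, at 3.03 ± 0.192 (log2 difference ± SE, limma adjusted p = 0.000181 and 2.51e-07). In SM&M1 against PostDP, 4 rose and 4 fell. Cd7 averaged 10.24 in SM&M1 and 5.12 in PostDP cells and rose by 5.12 ± 0.206 (adjusted p = 2.35e-08), while Cd8a, a chain of the coreceptor that CD4 single-positive cells lack, fell by -4.95 ± 0.43 (adjusted p = 1.07e-05). With arrays centred, 4 genes of the list were called. In M2 against SM&M1, Spn, which encodes the heavily sialylated CD43, rose by 0.79 ± 0.152 (adjusted p = 0.0156) and Cd24a fell by -2.50 ± 0.559 (adjusted p = 0.0319); these calls were lost in 7 and 10 of 24 alternatives. Leaving out single arrays gave 0 to 5 called genes of the list there: 0 without any one SM&M1 replicate or M2 replicate 2 or 3, 1 without PostDP replicate 2 and 5 without Tak1-deficient replicate 2. In Tak1-deficient against SM&M1 cells, Cd7 fell by -1.60 ± 0.206 and Cd44, the hyaluronan receptor, by -1.58 ± 0.204 (adjusted p = 0.00157 for each). Both calls were lost in the fit of only those groups (adjusted p = 0.216 and 0.16) and with a replicate block (0.699 for each).

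Lectins that read sialic acid or the galactose under it were mostly dim, with 8 of 14 measured genes tested. Lgals1 and Lgals9, which encode galectins, fell in PostDP against PreDP by -1.22 ± 0.239 and -0.75 ± 0.192 (limma adjusted p = 0.00319 and 0.0169). That Lgals9 call was lost in 3 of 24 alternatives (adjusted p from 0.0601 to 0.0618). Lgals3 averaged 8.69 in SM&M1 and 5.305 in PostDP cells and rose by 3.38 ± 0.36 (adjusted p = 4.62e-05). Lgals3 is also a macrophage gene, and summed macrophage markers ran from 664 to 1930 in SM&M1 and from 775 to 947 in PostDP cells. Their part in the rise was not tested. In Tak1-deficient against SM&M1 cells Lgals9 fell by -0.97 ± 0.192 (adjusted p = 0.0233), a call lost in 7 of 24 alternatives. In M2 against SM&M1, limma called 0 of the 8, with 1 at an unadjusted p under 0.05.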
